A study of Mus musculus with 18 samples.

Results

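RNA sequencing of E0771 cells gave read counts for 50686 genes, and 6 of them are described here: Tent5a, Gm43154, Cpne4, Cfap97d2, Aass and Hhipl1. They were chosen by the size of their change in read counts between cells carrying a hairpin against Cdk8 and control cells, both in DMSO. The DMSO libraries therefore describe these genes and test nothing about them. The libraries of the same cells in Senexin B (SnxB) did not enter that choice, and the tests below use those libraries.

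E0771 is a mouse triple-negative breast cancer line. All cells carried a CMV-driven Firefly luciferase gene and a retroviral shRNA vector marked by mCherry, on which the methods describe sorting. The hairpin was directed at Renilla luciferase in cntrl cells and at Cdk8 in shCdk8-1 cells (CDK8.1593) and shCdk8-2 cells (CDK8.1830). Each line received DMSO or 1 µM SnxB for 48 h, SnxB being an inhibitor of the kinases CDK8 and CDK19, which gave 6 groups of 3 libraries. Each hairpin is represented by 1 cell line, so lower Cdk8 and any other difference between the lines cannot be told apart. The labels do not say that the 3 libraries of a group came from separate cultures, and p-values then measure only the spread between these libraries. The 2 comparisons with cntrl under SnxB also share the cntrl libraries.

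The 6 genes have little in common by known function. Tent5a encodes a noncanonical poly(A) polymerase of the TENT5 family, enzymes that lengthen the poly(A) tails of selected mRNAs. Aass encodes aminoadipic semialdehyde synthase, the mitochondrial enzyme that starts the breakdown of lysine through saccharopine. Cpne4 encodes a copine, a protein that binds membrane phospholipids when calcium rises. Hhipl1 is a relative of Hhip, whose product binds Hedgehog ligands outside the cell. In the Hedgehog pathway a ligand relieves the block that its receptor places on Smoothened, and Gli transcription factors then switch on targets that include Gli1 and Ptch1. Cfap97d2 contains a CFAP97 domain, and Gm43154 is annotated as a long intergenic noncoding RNA.

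The genes lie on chromosomes 6, 8, 9 and 12 of GRCm38. Tent5a (ENSMUSG00000032265.14) spans chr9:85320439-85327348 on the minus strand. Cpne4 (ENSMUSG00000032564.16) spans chr9:104547286-105034544 on the plus strand. Gm43154 (ENSMUSG00000086804.8) spans chr6:31605190-31798053 on the plus strand. Aass (ENSMUSG00000029695.13) spans chr6:23072173-23132986 on the minus strand. Cfap97d2 (ENSMUSG00000090336.4) spans chr8:13705889-13743414 and Hhipl1 (ENSMUSG00000021260.7) chr12:108306270-108328300, both on the plus strand.

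These genes were near 0 in some lines and clearly expressed in others, and the DNA before their RefSeq starts is shown for that reason. The sequences are the 250 bases before the most upstream start in the RefSeq promoter table (GRCm38.p6), 5′ to 3′ on the gene's strand, for the 5 genes with an entry. Capitals mark CpG dinucleotides. Gm43154 had no entry.
Tent5a: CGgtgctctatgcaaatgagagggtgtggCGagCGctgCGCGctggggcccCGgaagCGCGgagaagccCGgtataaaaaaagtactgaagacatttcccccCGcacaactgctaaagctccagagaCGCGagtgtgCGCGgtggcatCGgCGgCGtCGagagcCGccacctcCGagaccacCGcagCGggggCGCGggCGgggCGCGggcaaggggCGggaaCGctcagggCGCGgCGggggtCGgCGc
Cpne4: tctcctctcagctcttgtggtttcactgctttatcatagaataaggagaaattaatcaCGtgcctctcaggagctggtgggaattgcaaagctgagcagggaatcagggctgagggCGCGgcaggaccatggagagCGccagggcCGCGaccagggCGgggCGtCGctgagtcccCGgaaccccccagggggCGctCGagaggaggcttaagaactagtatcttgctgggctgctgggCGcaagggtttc
Cfap97d2: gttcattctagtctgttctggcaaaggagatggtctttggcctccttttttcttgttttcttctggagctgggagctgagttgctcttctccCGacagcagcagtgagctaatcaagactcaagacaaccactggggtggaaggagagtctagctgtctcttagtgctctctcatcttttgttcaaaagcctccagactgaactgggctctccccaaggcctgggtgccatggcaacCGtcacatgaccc
Aass: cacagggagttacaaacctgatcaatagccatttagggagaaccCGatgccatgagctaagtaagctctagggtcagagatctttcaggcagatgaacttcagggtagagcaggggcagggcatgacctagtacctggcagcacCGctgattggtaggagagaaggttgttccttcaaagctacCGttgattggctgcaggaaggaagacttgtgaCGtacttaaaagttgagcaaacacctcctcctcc
Hhipl1: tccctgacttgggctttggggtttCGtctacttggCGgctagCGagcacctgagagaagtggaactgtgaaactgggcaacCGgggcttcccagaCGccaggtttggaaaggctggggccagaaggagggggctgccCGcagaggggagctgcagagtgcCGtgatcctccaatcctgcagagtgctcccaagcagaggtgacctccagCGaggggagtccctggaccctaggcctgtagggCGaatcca
The windows are chr9:85327151-85327400 and chr6:23132987-23133236 on the minus strand and chr9:104569405-104569654, chr8:13705639-13705888 and chr12:108306020-108306269 on the plus strand. The Cpne4 window lies inside the span given for the gene, which has further annotated starts. Most of the Tent5a window, from 85327151 to 85327348, also lies inside the span given for Tent5a, so its CpGs and motifs are not all outside the gene. CpG content ranged widely. The Tent5a window held 34 CpG dinucleotides, and 96.5% of the 32851 promoters in the table held fewer. The Cpne4 window held 13, the Hhipl1 window 9, the Aass window 4 and the Cfap97d2 window 2, against a median of 6 over all promoters. Fewer CpGs than in the Cfap97d2 window were found in 18.8% of promoters. Motifs of the CCAAT box, the TATA box, the GC box and a Gli site were searched on both strands, and none was found in all 5 windows. CCAAT was present in the Aass window at 2 positions and in the Hhipl1 window at 1, as in 33.9% of all promoters. TATAAA was present in the Tent5a window at 1 position, as in 12.4% of all promoters. GGGCGG was present in the Tent5a window at 2 positions and in the Cpne4 window at 1, as in 32.7% of all promoters. The Gli consensus TGGGTGGTC was in none of the 5 windows, the one before Hhipl1 included, and was in 0.225% of all promoters. A match describes these letters only, and its absence says nothing about a factor.

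The libraries held 16452260 to 22664693 counts, so 3 counts corresponded to 0.132 to 0.182 CPM (counts scaled to a common library size), and lower levels could not be told from 0. Cdk8 (ENSMUSG00000029635.15) was 54.9 ± 2.03 CPM (n = 3, SD) in cntrl cells under SnxB, 23.1 ± 2.57 CPM (n = 3, SD) in shCdk8-1 cells and 39.5 ± 2.57 CPM (n = 3, SD) in shCdk8-2 cells. It was lower with both hairpins under SnxB (log2 fold change -1.25, adjusted p = 2.97e-08, and -0.47, adjusted p = 0.00017), and the level with shCdk8-2 was above that with shCdk8-1 (0.78, adjusted p = 4.35e-05). The change with shCdk8-2 was 1.39-fold and the difference between the hairpins 1.71-fold, both under the fold threshold of 2 used below. Under SnxB the summed level of 7 epithelial markers was 0 to 0.307 CPM in cntrl libraries, 7.47 to 8.67 CPM in shCdk8-1 and at most 12.7 CPM in shCdk8-2 libraries, most of it from Krt8. The 5 mesenchymal markers summed to 4313 to 4509 CPM in cntrl and 3736 to 4065 CPM in the shCdk8 libraries under SnxB, without overlap. Most of this sum came from Vim (-0.17 and -0.12 on the log2 scale), and none of the 3 tested was called with either hairpin. In all 18 libraries the 6 leukocyte markers reached at most 0.601 CPM and 4 or 5 of them were at 0 in each group under SnxB. The 6 fibroblast markers summed to 634 to 730 CPM in cntrl and 418 to 504 CPM in the shCdk8 libraries under SnxB, most of it from Pdgfra and Pdgfrb, while the called members rose, Col1a1 (4.14 and 3.74 on the log2 scale) and Col1a2 (2.28 and 1.88) with both hairpins and Dcn (1.58) with shCdk8-1. Col1a2 had only 1, 3 and 4 counts in cntrl cells under SnxB, so its values rest on few counts. The 3 endothelial markers summed to at most 3.25 CPM in cntrl, 16.2 to 17.8 CPM in shCdk8-1 and 7.32 to 7.68 CPM in shCdk8-2 libraries, where Pecam1 rose (5.58 and 4.31) and Cdh5 fell (-3.24 and -1.97). Of the receptor genes that define breast cancer subtypes, Pgr had 0 counts in every library, Erbb2 was 55.8 ± 4.28 CPM (n = 3, SD) in cntrl cells under SnxB, and Esr1 was 20.8 ± 3.08 CPM (n = 3, SD), so Esr1 transcripts were not absent from this line labelled triple-negative. Esr1 fell by 4.70 on the log2 scale (adjusted p = 6.7e-10) with shCdk8-1 and by 4.30 (adjusted p = 1.44e-09) with shCdk8-2. The part of these markers in the results below was not tested.

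Tent5a, Cpne4 and Gm43154 were expressed in cntrl cells and were at or near 0 in both shCdk8 lines. Cfap97d2, Aass and Hhipl1 were at or near 0 in cntrl cells and were expressed in both shCdk8 lines. Under SnxB all 6 were called with both hairpins (fold change over 2, adjusted p below 0.05), 3 higher and 3 lower. Of the 12389 genes tested, 12.2% were called with shCdk8-1 and 10.3% with shCdk8-2. The lines are the same as those on which the genes were picked, so this repeats the measurement in other libraries and not the making of the lines. In DMSO all 6 were also called, which the choice fixed (12.3% of 12590 genes with shCdk8-1 and 10.8% with shCdk8-2).

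**Figure D1:**
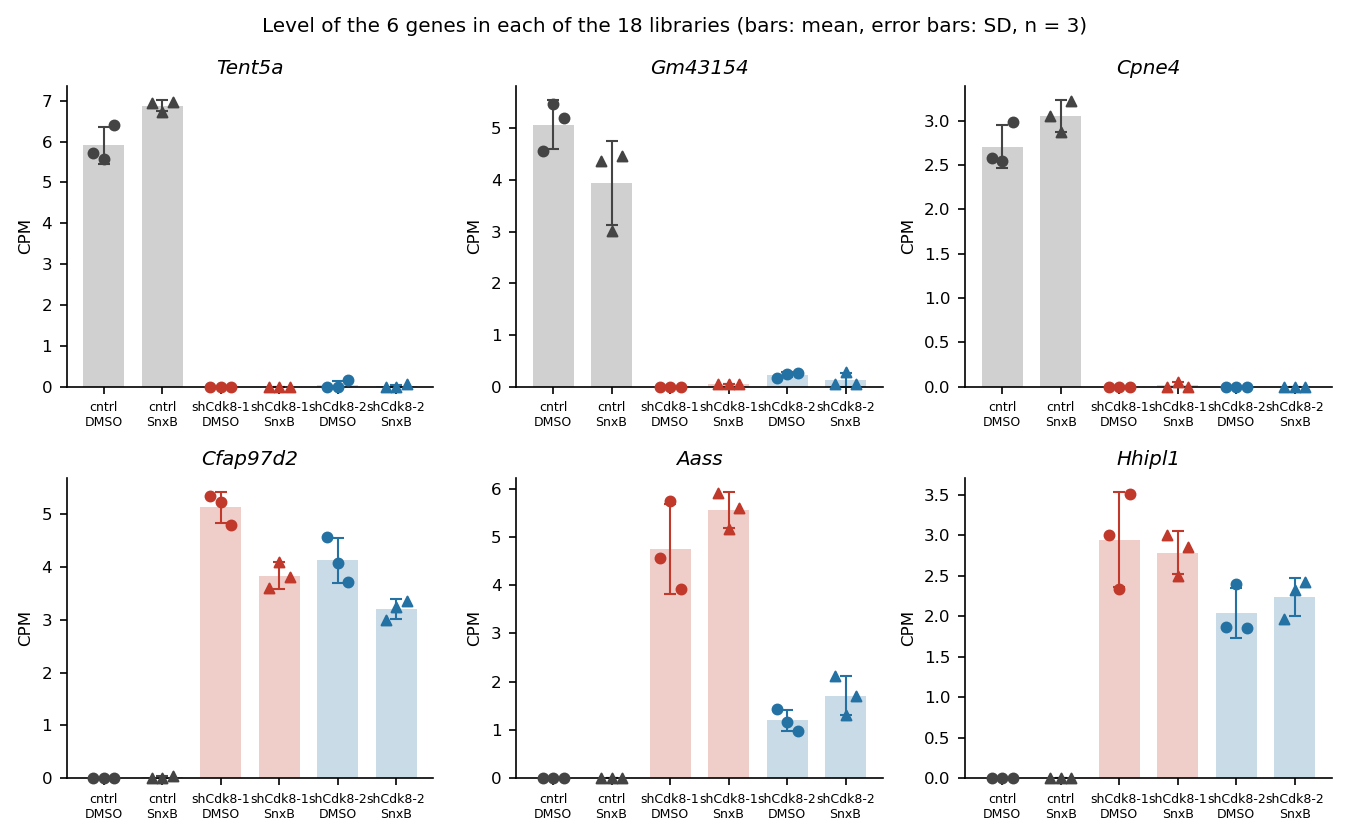
Level of each gene in CPM (y axis, from 0) in the 18 libraries, by line and agent (x axis); points are libraries (circles DMSO, triangles SnxB), bars are means and error bars SD of 3 libraries. Tent5a, Gm43154 and Cpne4 are above 2.5 CPM in every cntrl library and below 0.3 CPM in every shCdk8 library, whereas Cfap97d2, Aass and Hhipl1 are at most 0.0512 CPM in every cntrl library and at least 0.986 CPM in every shCdk8 library, with Aass lower in shCdk8-2 than in shCdk8-1 cells.

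Tent5a, the poly(A) polymerase, had 93, 103 and 131 counts in the cntrl libraries in DMSO and 127, 145 and 136 in SnxB. All 6 libraries of shCdk8-1 cells held 0 counts. The shCdk8-2 libraries held 0, 0 and 3 counts in DMSO and 0, 0 and 1 in SnxB. No cntrl library came near any shCdk8 library. Its level was 5.91 ± 0.445 CPM (n = 3, SD) in cntrl cells in DMSO and 6.88 ± 0.133 CPM (n = 3, SD) in SnxB. Under SnxB it was at least 41.4-fold lower in shCdk8-1 than in cntrl cells, taking 3 counts per library as the floor (adjusted p = 8.66e-09). In shCdk8-2 cells the ratio was 377-fold, with a counting interval of 67.2 to 14910 that rests on 1 count in replicate 3 (adjusted p = 1.44e-08). The bound in DMSO, with shCdk8-1, was 38.0-fold.

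Cpne4, the copine, had 42, 47 and 61 counts in cntrl cells in DMSO and 56, 62 and 63 in SnxB. The shCdk8-1 libraries held 0 counts in DMSO and 0, 1 and 0 in SnxB, and all 6 shCdk8-2 libraries held 0. The 2 sets of libraries did not overlap. Its level in cntrl cells was 2.71 ± 0.244 CPM (n = 3, SD) in DMSO and 3.05 ± 0.176 CPM (n = 3, SD) in SnxB. Under SnxB it was at least 18.5-fold lower in shCdk8-2 than in cntrl cells (adjusted p = 3.11e-07). With shCdk8-1 the ratio was 166-fold, with a counting interval of 29.4 to 6578 around a single count in replicate 2 (adjusted p = 2.94e-07). The smaller bound for Cpne4 than for Tent5a goes with its lower counts in cntrl cells, which set how large a bound can be.

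Gm43154, the noncoding RNA, had 74, 101 and 106 counts in cntrl cells in DMSO and 80, 65 and 87 in SnxB. The shCdk8-1 libraries held 0 counts in DMSO and 1 each in SnxB. The shCdk8-2 libraries held 4, 5 and 5 counts in DMSO and 1, 5 and 1 in SnxB. Tent5a and Cpne4 never had more than 3 counts in a shCdk8 library. Its level fell from 3.95 ± 0.809 CPM (n = 3, SD) in cntrl cells under SnxB to 0.131 ± 0.133 CPM (n = 3, SD) in shCdk8-2 cells, -4.86 on the log2 scale (SE 0.375, adjusted p = 2.45e-07). Without shCdk8-2 replicate 2, the library with 5 counts, the change was -6.03 (adjusted p = 5.56e-07). With shCdk8-1 it was 70.8-fold lower, with a counting interval of 23.9 to 346 (adjusted p = 1.08e-07).

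Aass, the lysine-degrading enzyme, had 0 counts in all 6 cntrl libraries. In shCdk8-1 cells it had 97, 101 and 76 counts in DMSO and 110, 87 and 106 in SnxB. In shCdk8-2 cells it had 33, 23 and 18 counts in DMSO and 43, 23 and 29 in SnxB. Each shCdk8-1 library lay above each shCdk8-2 library, and each of those lay above the cntrl libraries. Under SnxB its level was 5.56 ± 0.373 CPM (n = 3, SD) in shCdk8-1 cells, at least 36.5-fold above cntrl (adjusted p = 2.59e-08). It was 1.71 ± 0.405 CPM (n = 3, SD) in shCdk8-2 cells, at least 11.3-fold above cntrl (adjusted p = 2.21e-06).

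Hhipl1, the relative of Hhip, also had 0 counts in all 6 cntrl libraries. In shCdk8-1 cells it had 64, 41 and 68 counts in DMSO and 56, 42 and 54 in SnxB. In shCdk8-2 cells it had 43, 47 and 34 counts in DMSO and 40, 41 and 41 in SnxB. The lines with a Cdk8 hairpin were close to each other and far from cntrl. Under SnxB its level was 2.79 ± 0.264 CPM (n = 3, SD) in shCdk8-1 and 2.24 ± 0.239 CPM (n = 3, SD) in shCdk8-2 cells, at least 18.3-fold (adjusted p = 1.16e-07) and at least 14.7-fold (adjusted p = 3.48e-07) above cntrl. A gene on the opposite strand, 4930478K11Rik, overlaps Hhipl1 and had 0 counts in every library.

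Cfap97d2 had 0 counts in the cntrl libraries in DMSO and 0, 0 and 1 in SnxB. In shCdk8-1 cells it had 114, 92 and 93 counts in DMSO and 67, 69 and 72 in SnxB. In shCdk8-2 cells it had 105, 80 and 68 counts in DMSO and 61, 57 and 57 in SnxB. All 12 shCdk8 libraries were far above all 6 cntrl libraries. Under SnxB its level was 3.84 ± 0.251 CPM (n = 3, SD) in shCdk8-1 and 3.20 ± 0.184 CPM (n = 3, SD) in shCdk8-2 cells. The ratio to cntrl was 227-fold with a counting interval of 40.4 to 9020 (adjusted p = 4.98e-09) and 190-fold with an interval of 33.6 to 7531 (adjusted p = 1.53e-08), both resting on 1 count in cntrl replicate 3.

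Genes with counts split in this way were then counted over the whole table. The DMSO libraries on which the 6 were chosen are included, so the counts below describe and test nothing about the 6. In all, 3 of the 50686 genes had 0 counts in all 6 cntrl libraries and at least 10 in all 12 shCdk8 libraries, and they were Aass, Hhipl1 and Diras2. A single gene, Slit2, had 0 counts in all 12 shCdk8 libraries and at least 10 in all cntrl libraries. Diras2 and Slit2 were named after their values were seen. Allowing up to 3 counts in the cntrl libraries gave 47 genes with the first pattern, Cfap97d2, Aass and Hhipl1 among them. Allowing up to 5 counts in the shCdk8 libraries gave 43 genes with the second, Tent5a, Gm43154 and Cpne4 among them. That limit of 5 equals the highest count of Gm43154 in a shCdk8 library. Of these, 45 and 38 were annotated as protein coding.

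Genes outside the 6 had changes of similar size. Genes called in DMSO were ranked by the size of the fitted change. They had no overlap between the 2 groups and a mean of at least 1 CPM over the 12 libraries of that fit, cntrl in SnxB included. Among the 1078 such genes with shCdk8-1, Tent5a, Cfap97d2, Gm43154 and Aass ranked 2 to 5, Hhipl1 ranked 12 and Cpne4 ranked 15. Rank 1 was held by Nr5a1, a nuclear receptor, with 158, 143 and 154 counts in shCdk8-1 cells and 0 in cntrl cells, and ranks 6 and 7 by Lilrb4a and Strc. Among 925 such genes with shCdk8-2, Cfap97d2, Cpne4 and Hhipl1 ranked 3, 4 and 5, Aass 9, Tent5a 19 and Gm43154 73. For the 6 genes these fitted values are against groups at or near 0 counts, so a few counts can move a rank. Tent5a, for example, had 0, 0 and 3 counts in the shCdk8-2 libraries in DMSO. Nr5a1 was again at the top, Dkk2, a secreted Wnt pathway regulator, held rank 2, and Krt8, an epithelial keratin, rank 6.

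The hairpins were next compared directly under SnxB, where 1.9% of the 12389 genes differed by the same threshold. Of the 6 genes, 1 passed it, Aass. It was lower in shCdk8-2 than in shCdk8-1 cells by a log2 fold change of -1.68 (SE 0.178, adjusted p = 0.000131), or 3.20-fold. In DMSO its level was 4.74 ± 0.929 CPM with shCdk8-1 and 1.20 ± 0.226 CPM with shCdk8-2 (n = 3 each, SD). Aass was chosen on those libraries, so their order describes it and adds no test. For Cfap97d2 the difference was -0.25 on the log2 scale with a 95% interval of -0.54 to 0.04 (adjusted p = 0.289). For Hhipl1 it was -0.32 with an interval of -0.66 to 0.02 (adjusted p = 0.257). Both intervals include 0 and a moderately lower level with shCdk8-2. Gm43154 was 2.31-fold higher with shCdk8-2, with a counting interval of 0.528 to 13.9 (adjusted p = 0.495). Tent5a and Cpne4 were at or under 3 counts in every library of both lines, so no comparison of the hairpins was possible for them.

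In cntrl cells the 6 genes kept to the cntrl side of this gap with either agent. The values below use the DMSO libraries, on which the genes were chosen, so differences between the agents can carry that choice. They are given without a test. The share of all genes whose libraries do not overlap between the agents was not counted, so overlap here only describes these libraries. In cntrl cells the log2 fold change from DMSO to SnxB was 0.21 (SE 0.153) for Tent5a, 0.17 (SE 0.174) for Cpne4 and -0.37 (SE 0.167) for Gm43154. The libraries of the agents did not overlap for Tent5a and Gm43154 and did overlap for Cpne4. Aass and Hhipl1 were at 0 counts in cntrl cells with either agent, and Cfap97d2 reached 1 count. In shCdk8 cells the value for Cfap97d2 was -0.42 (SE 0.127) with shCdk8-1 and -0.37 (SE 0.134) with shCdk8-2, and its libraries in SnxB lay below those in DMSO in both lines. For Aass it was 0.24 (SE 0.157) and 0.51 (SE 0.244), with overlapping libraries. For Hhipl1 it was -0.09 (SE 0.173) and 0.13 (SE 0.191), again with overlap.

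The 6 groups were then ordered by mean level. For Tent5a the order was cntrl in SnxB, cntrl in DMSO and then the 4 shCdk8 groups, whose libraries overlapped near 0. Cpne4 had the same order at the top, with overlapping cntrl groups. For Gm43154 cntrl in DMSO was above cntrl in SnxB, and both were above the shCdk8-2 and then the shCdk8-1 groups. For Aass both shCdk8-1 groups came before both shCdk8-2 groups, with overlap between the agents within each line. Hhipl1 had the same order of lines by group mean, but its libraries overlapped between the agents and, for shCdk8-1 in DMSO, with both shCdk8-2 groups. For Cfap97d2 shCdk8-1 in DMSO came first, shCdk8-2 in DMSO and shCdk8-1 in SnxB overlapped, and shCdk8-2 in SnxB was the lowest of the 4.

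Even where expressed, the genes were weakly expressed. Per kilobase of exon, the highest group mean was 1.46 CPM per kb for Aass, 1.21 for Tent5a, 1.13 for Hhipl1, 1.07 for Cfap97d2, 0.745 for Gm43154 and 0.555 for Cpne4. The median gene tested had 7.45 to 7.67 CPM per kb in the same groups. In its highest group each of the 6 was above 14.6% to 23.9% of the 12772 genes tested over all libraries. Within the highest group the SD over libraries was 1.93% to 9.25% of the mean for 5 of the genes, while for Hhipl1 it was 19.98%.

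The genes next to the 6 on the chromosome were examined under SnxB. On each side the nearest gene tested over all 18 libraries was taken, which gave 12 neighbours. With either hairpin 4 of the 12 passed the threshold (12.2% and 10.3% of all genes did), and each moved in the direction of the gene beside it. They were Plxna4, Acpp, Ccdc85c and Cyp46a1.

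Hhipl1 had called neighbours on both sides. Ccdc85c, which encodes a coiled-coil protein, lies on the opposite strand, 30.9 kb away. It had 0, 1 and 1 counts in cntrl cells under SnxB, 127, 99 and 108 with shCdk8-1 and 114, 101 and 66 with shCdk8-2, so its libraries split as those of Hhipl1 did. The ratio to cntrl was 182-fold (counting interval 50.1 to 1513, adjusted p = 5.52e-09) with shCdk8-1 and 152-fold (41.8 to 1263, adjusted p = 1.69e-08) with shCdk8-2. Cyp46a1, the cholesterol 24-hydroxylase gene, lies 6.08 kb beyond Hhipl1. It had 0, 5 and 2 counts in cntrl cells, 16, 8 and 22 with shCdk8-1 and 13, 17 and 8 with shCdk8-2, and was 6.84-fold (adjusted p = 0.00169) and 5.66-fold (adjusted p = 0.00491) above cntrl. These folds rest on few counts. In DMSO, where Cyp46a1 was not among the genes tested, it had 5, 2 and 2 counts in cntrl cells. There it had 12, 6 and 7 with shCdk8-1 and 11, 17 and 9 with shCdk8-2.

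Plxna4, a semaphorin receptor gene, lies 346 kb beyond Gm43154 on the opposite strand. Under SnxB it had 300, 256 and 234 counts in cntrl cells, 1, 2 and 0 in shCdk8-1 cells and 32, 20 and 10 in shCdk8-2 cells. The libraries of the 3 lines did not overlap. It was 241-fold lower with shCdk8-1 (counting interval 82.2 to 1171, adjusted p = 4.72e-09) and lower with shCdk8-2 by a log2 fold change of -3.55 (adjusted p = 6.13e-08). The hairpins differed from each other by a ratio of 20.5 (counting interval 6.69 to 102, adjusted p = 0.00176). On the other side of Gm43154, Mkln1 was within 0.19 on the log2 scale of cntrl with both hairpins and was not called. Gm13848, a noncoding gene inside the span of Gm43154 on the opposite strand, was added after its values were seen. It had 33, 40 and 33 counts in cntrl cells under SnxB, 0, 0 and 1 with shCdk8-1 and 2, 6 and 5 with shCdk8-2. Reads were counted by strand, so the 2 genes were counted apart.

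Acpp, an acid phosphatase gene, lies 209.5 kb before Cpne4 on the opposite strand. It had 384, 353 and 343 counts in cntrl cells under SnxB, 91, 64 and 67 with shCdk8-1 and 62, 39 and 46 with shCdk8-2. It was lower by log2 fold changes of -2.16 (adjusted p = 3.09e-08) and -2.76 (adjusted p = 9.34e-09), without reaching the floor as Cpne4 did. Mrpl3, 18.7 kb beyond Cpne4, was not called (0.11, adjusted p = 0.245, and 0.12, adjusted p = 0.189). The neighbours of Tent5a, Ibtk and the pseudogene Gm8228, lie 360 kb and 344 kb away, and neither was called. The neighbours of Aass, Ndufa5 and Gm8927, and those of Cfap97d2, Rasa3 and Cdc16, were not called either. Below the fold threshold, Rasa3 (-0.32 with both hairpins) and Cdc16 (-0.56 and -0.36) were lower while Cfap97d2 was higher. Ndufa5, which lies as far as 1386 kb from Aass, was higher (0.67 and 0.59), as Aass was. Gm8927, 368 kb away on the other side, was -0.42 and -0.39 (adjusted p = 0.317 and 0.363).

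Over a window of 1 Mb on each side, chosen after the neighbours' values were seen, 6 of 54 tested genes passed the threshold with each hairpin, or 11.1%, a share near that of all genes. They were the 4 neighbours above, Gm13848 and Atp11a. Of these called genes Atp11a alone, near Cfap97d2, moved against the gene it lies near (-1.47 with shCdk8-1, adjusted p = 1.77e-10, and -1.25 with shCdk8-2, adjusted p = 1.2e-09). By direction alone the windows differed. All 11 tested genes near Hhipl1 were higher with both hairpins, for example Ccnk (0.97 and 0.70). Of the 16 near Cfap97d2 all but Tfdp1 were lower with both, for example Lamp1 (-0.80 and -0.75). The 3 near Aass were lower and the 3 near Tent5a higher with both, against the gene beside them. The windows of Gm43154 and Cpne4 held both directions. The direction over a window was not tested.

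**Figure D2:**
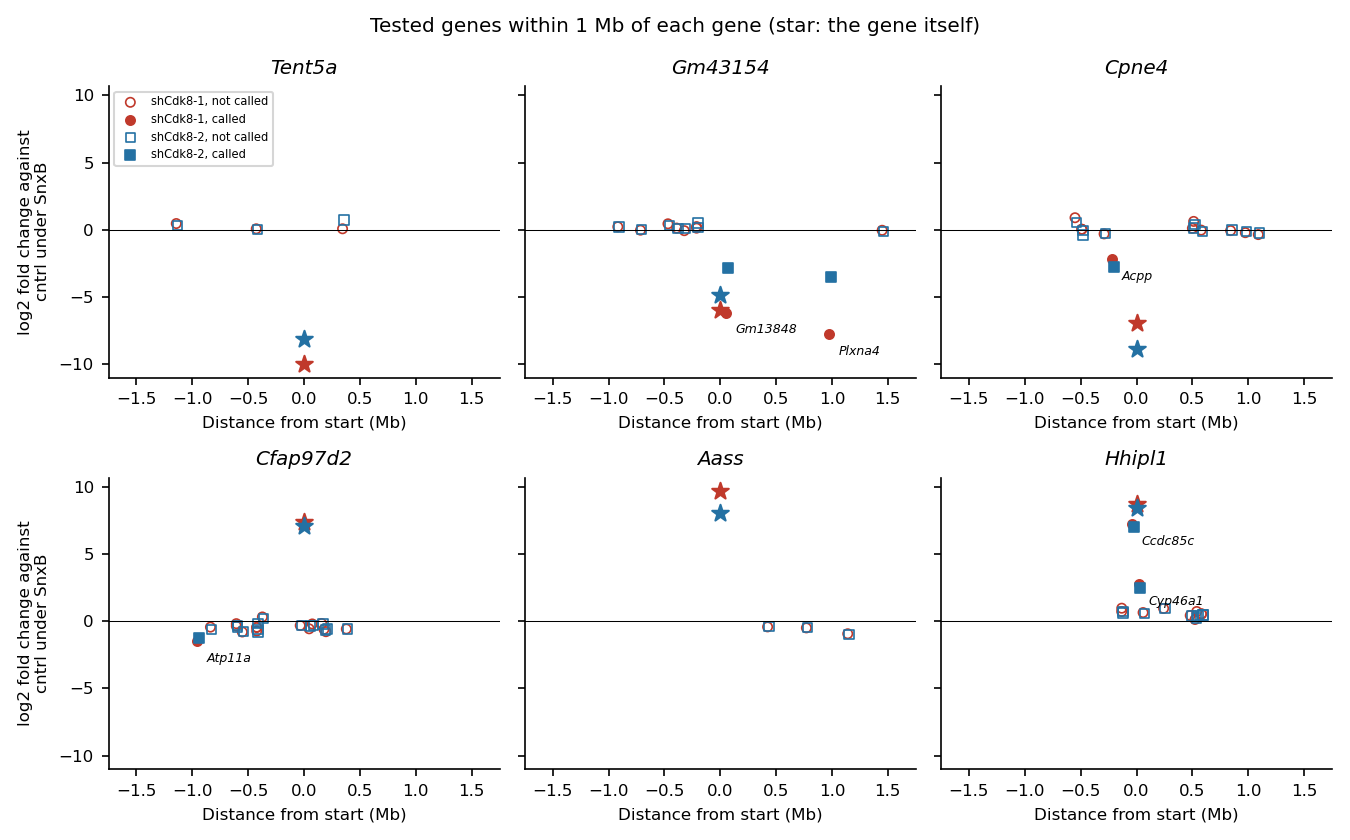
Fitted log2 fold change against cntrl under SnxB (y axis) of tested genes whose span comes within 1 Mb of each of the 6 genes, by distance of their start from the gene's start along its strand (x axis, Mb); circles are shCdk8-1, squares shCdk8-2, filled where called, and stars are the gene itself, whose fitted value against counts near 0 is no bound. Called genes lie near Gm43154, Cpne4, Hhipl1 and Cfap97d2, and none near Tent5a or Aass.

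The relatives and pathway partners of the 6 genes were then examined under SnxB. Of 12 other poly(A) polymerase genes, 10 were tested and 1 passed with each hairpin under SnxB, near the share of all genes called (12.2% and 10.3%). It was Tent5b, a close relative of Tent5a, and it rose where Tent5a fell: log2 fold change 2.71 (SE 0.139, adjusted p = 3.84e-09) with shCdk8-1 and 1.99 (SE 0.149, adjusted p = 1.88e-07) with shCdk8-2. Tent5c and Tent5d were at 3 and 5 counts at most. The median change of the 10 genes was 0.04 with shCdk8-1 and 0.02 with shCdk8-2, against 0.01 and 0.02 over all genes.

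Of 8 other lysine catabolism genes, 4 were tested and none was called with either hairpin under SnxB, where 12.2% and 10.3% of all genes were called. At an adjusted p under 0.05 alone, 2 passed with shCdk8-1 and 1 with shCdk8-2, against 58.8% and 55.1% of all genes. Aldh7a1, which acts after Aass in the pathway, was -0.41 (adjusted p = 0.000267) with shCdk8-1 and -0.15 (adjusted p = 0.0765) with shCdk8-2. Dhtkd1, which encodes a dehydrogenase subunit acting later in the pathway, went the other way, at 0.35 (adjusted p = 0.0149) and 0.46 (adjusted p = 0.00293). Gcdh, further along, was 0.06 with both (adjusted p = 0.415 and 0.455). The median change of the 4 genes was 0.06 with shCdk8-1 and 0.04 with shCdk8-2.

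Of 8 other copines, 4 were tested and 2 were called with each hairpin, against 12.2% and 10.3% of all genes, and both were higher while Cpne4 was lower. Cpne5 rose by 3.61 (SE 0.47, adjusted p = 2.41e-05) with shCdk8-1 and by 2.92 (SE 0.523, adjusted p = 0.0004) with shCdk8-2. Under SnxB it had 0, 4 and 2 counts in cntrl cells, 20, 21 and 30 with shCdk8-1 and 14, 14 and 16 with shCdk8-2. Its folds therefore rest on few counts near the floor in cntrl cells. Cpne7 rose by 2.74 (adjusted p = 3.48e-05) and 2.25 (adjusted p = 0.000352). The more abundant Cpne2 and Cpne3 were -0.62 and -0.21 with shCdk8-1 and were not called. The median of the 4 was 1.27 and 1.07. In the CFAP97 family, Cfap97 was tested and was not called, at -0.46 and -0.38, and Cfap97d1 had 0 counts in every library.

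Of 17 other Hedgehog pathway genes listed, 11 were tested under SnxB. With shCdk8-1, 3 rose and 2 fell, and with shCdk8-2, 2 rose and 2 fell, against 12.2% and 10.3% of all genes called. The genes that rose were Gli1 and Gli2 with both hairpins and Ptch1, which encodes a Hedgehog receptor, with shCdk8-1. Gli1, a transcription factor and a target of the pathway, rose by 4.07 (SE 0.0858, adjusted p = 1.15e-12) with shCdk8-1 and by 3.26 (SE 0.0899, adjusted p = 2.38e-11) with shCdk8-2. Ptch1 rose by 1.45 (adjusted p = 1.54e-09) with shCdk8-1 and was 0.79 with shCdk8-2, under the fold threshold. Gli2 rose by 1.64 and 1.55 (adjusted p = 0.000427 and 0.000776).

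The Hedgehog genes that fell were Cdon, a ligand co-receptor, and Hhat, which attaches palmitate to the ligands. Cdon was -1.79 with shCdk8-1 and -1.23 with shCdk8-2, and Hhat was -1.48 and -1.02 (adjusted p = 8.61e-08 or less for each). Among ligands, Shh had 0 counts in every library, Ihh had 6 at most, and Dhh was tested and was not called (0.09, adjusted p = 0.696, and 0.11, adjusted p = 0.621). Smo, which carries the signal, was not called (0.13 and 0.04). The median over the 11 genes was 0.09 with shCdk8-1 and 0.11 with shCdk8-2, against 0.01 and 0.02 over all genes.

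**Figure D3:**
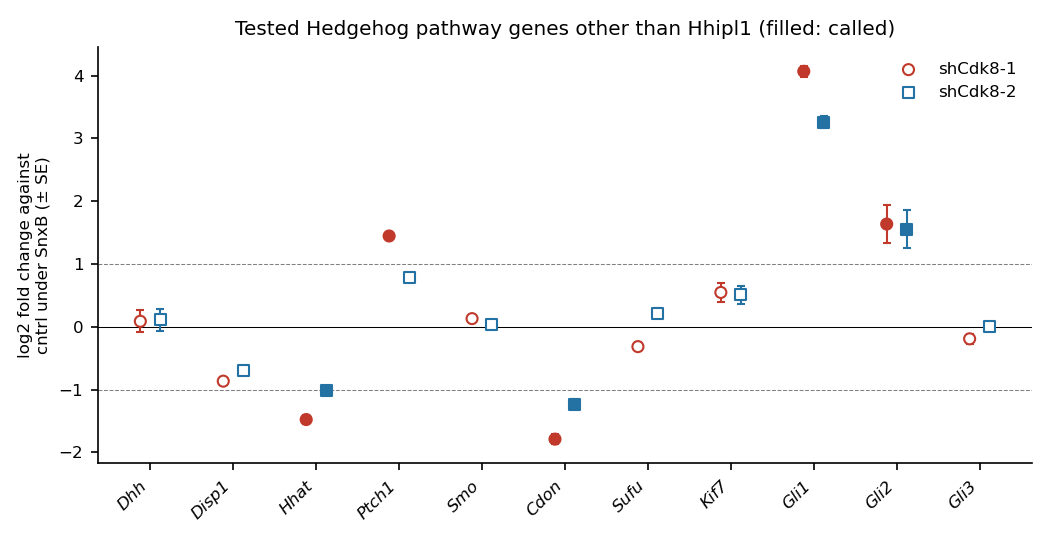
Log2 fold change against cntrl under SnxB (y axis, error bars SE) of the 11 tested Hedgehog pathway genes other than Hhipl1 (x axis); circles are shCdk8-1 and squares shCdk8-2, filled where called, and dashed lines mark a fold of 2. Gli1 is above 3 with both hairpins, and Cdon and Hhat are below -1.

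For each of the 6 genes the 3 genes with the highest Pearson correlation of log2(CPM + 1) over the 18 libraries were found among 11176 genes averaging 1 CPM or more, the 6 themselves left out. The 18 libraries come from 3 lines, so a high r mostly says that a gene differs between the lines in the same way. Many genes reached such values: r was above 0.99 for 49 genes with Tent5a, 39 with Cpne4 and 17 with Gm43154. It was above 0.99 for 14 genes with Cfap97d2, 8 with Hhipl1 and 1 with Aass. Gli1 was the gene most like Hhipl1 (r = 0.992), by a narrow margin over Acer2 (r = 0.9915) and Entpd5 (r = 0.9914). Gli1 was 3.15 ± 0.231 CPM (n = 3, SD) in cntrl, 53.1 ± 2.55 CPM (n = 3, SD) in shCdk8-1 and 30.2 ± 1.92 CPM (n = 3, SD) in shCdk8-2 cells under SnxB. The genes most like Aass were Hipk2 (r = 0.991), a kinase gene, Nsd1, a histone methyltransferase gene, and Lss, a gene of sterol synthesis. Hipk2 was at 1.73 ± 0.645, 19.2 ± 1.56 and 5.92 ± 1.27 CPM (n = 3 each, SD) in cntrl, shCdk8-1 and shCdk8-2 cells under SnxB. Hipk2 was picked for its likeness to Aass over libraries that include these. Its order of the hairpins therefore follows from that choice and tests nothing.

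Tent5a and Cpne4 were correlated with each other at r = 0.999, above any of these genes, and shared 2 of their 3 most similar genes outside them, Sema5a and Gnao1. The third was Dock10 for Tent5a and Fabp4, a fatty acid binding protein gene, for Cpne4. Fabp4 fell from 787 ± 27.6 CPM (n = 3, SD) in cntrl to 23.8 ± 1.65 CPM (n = 3, SD) in shCdk8-1 and 27.9 ± 1.68 CPM (n = 3, SD) in shCdk8-2 cells under SnxB. Gm43154 was most like Mmp10, Vav1 and Csgalnact2 (r = 0.994, 0.994 and 0.993), and Cfap97d2 was most like Hand1, Pnma5 and Armh3 (r = 0.995, 0.993 and 0.992). Armh3 was not called under SnxB, at 0.98 and 0.91, although its r was over 0.99. Between genes of the same direction, r was 0.875 for Aass and Cfap97d2 and 0.901 for Aass and Hhipl1, the lowest such values among the 6.

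**Figure D4:**
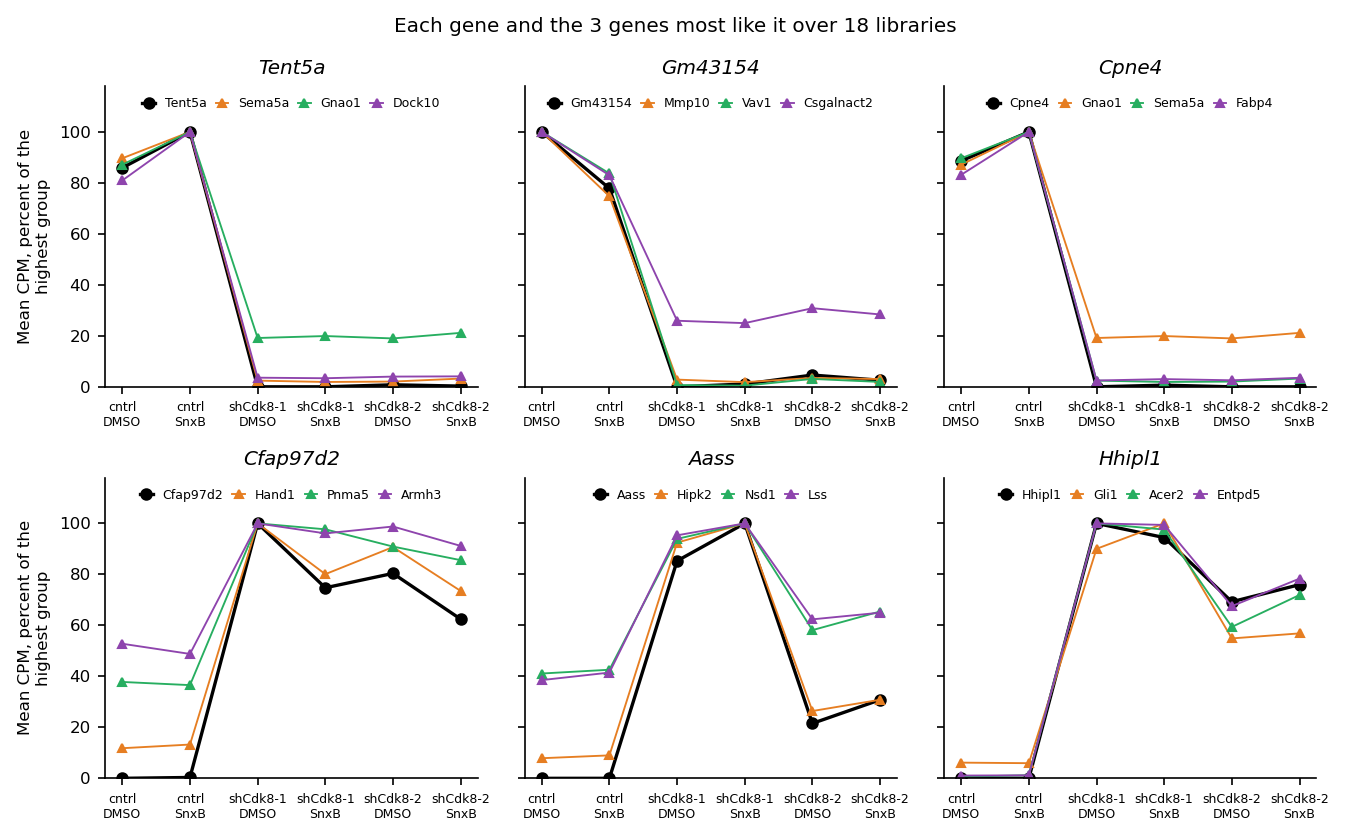
Group mean CPM as a percent of the gene's highest group (y axis, from 0) in the 6 groups (x axis) for each gene (black) and the 3 genes most correlated with it over 18 libraries (colours). Each of the 6 has a group at 0 counts, and the lowest group of the correlated genes lies between 0.456% of the highest level for Vav1 and 48.8% for Armh3.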

How the data were processed

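RNA sequencing covered 18 libraries in 6 groups. The authors trimmed reads with Trimmomatic, mapped them to GRCm38 with STAR and ran featureCounts in its stranded mode over GENCODE exons. Multi-mapping reads and reads shared by overlapping genes were not counted. The deposited values are raw counts per gene, and symbols were found for 50462 of 50686 genes. Libraries held 16452260 to 22664693 counts, and no 2 libraries were identical.

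Counts were tested with edgeR 4.0.16 in R 4.3.3 (TMM, filterByExpr with a minimum count of 10, glmQLFit, glmQLFTest, Benjamini-Hochberg over all genes tested). The 9 libraries in SnxB were fitted together (12389 genes). The DMSO contrasts were fitted to 12 libraries, those in DMSO and cntrl in SnxB (12590 genes), and SnxB against DMSO within lines to all 18 (12772 genes). Genes were called with a fold change over 2 and an adjusted p below 0.05. Standard errors (SE) came from the F statistic of that test, and 95% intervals from them. CPM were scaled by TMM over 18 libraries. A fold against a group with 0 counts is a bound against 3 counts per library, and one against 1 to 3 counts in all is a ratio of summed counts with an exact 95% interval, which covers counting error only.

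The 6 genes and the gene lists were chosen with earlier results of these data known. 1 gene of the Hedgehog list is not reported here and is left out of its counts and medians. Named beside them were Cdk8, the list genes, the 3 most correlated genes, the nearest tested gene on each side and the 3 other genes with the largest DMSO change. Alternatives were DESeq2 1.42.0, its size factors, no filter, all 18 libraries, a replicate block, the adjusted p alone and each library left out. The code was tested on simulated data. File headers give the shCdk8-2 libraries labelled 1, 2 and 3 the replicate numbers 2, 3 and 3, and the labels were used. Promoters were taken from RefSeq. Figures were drawn with matplotlib 3.10.9.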

Additional observations from a re-analysis of the deposited data

Results flagged for a closer look

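Of the 6 genes, Aass alone was called between the hairpins under SnxB, and Tent5a and Cpne4 could not be compared. Its level was 5.56 ± 0.373 CPM (n = 3, SD) with shCdk8-1 and 1.71 ± 0.405 CPM (n = 3, SD) with shCdk8-2, both against 0 counts in the cntrl libraries. The difference of shCdk8-2 against shCdk8-1 was -1.68 on the log2 scale (SE 0.178, edgeR adjusted p = 0.000131), and all 3 shCdk8-2 libraries were below all 3 shCdk8-1 libraries. Cdk8 itself was 23.1 CPM with shCdk8-1 and 39.5 CPM with shCdk8-2, and its part in this difference was not tested.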

How the results depend on the processing

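For the 6 genes, every fold change against cntrl kept its direction and its call under each alternative run. With the fold threshold dropped (adjusted p alone), the genes called under SnxB numbered 7285 for shCdk8-1 against cntrl, 6827 for shCdk8-2 against cntrl and 2068 for shCdk8-2 against shCdk8-1, and in DMSO 7624 with shCdk8-1 and 7322 with shCdk8-2. The hairpin difference of Aass ranged from -1.88 to -1.52 over all alternatives (largest adjusted p = 0.00101). The hairpin difference of Gm43154, which was not called, ranged from -0.034 to 1.54 when each library was left out and turned without shCdk8-2 replicate 2 in SnxB. Fitted values that rest on few counts moved when 1 library was left out. Without cntrl replicate 3 in SnxB, Cfap97d2 was 9.16 with shCdk8-1 and 8.90 with shCdk8-2. Without shCdk8-1 replicate 2 in SnxB Cpne4 was -8.86, without shCdk8-2 replicate 2 in SnxB Gm43154 was -6.03, without shCdk8-2 replicate 3 Tent5a was -10.03 in SnxB and -9.86 in DMSO, and without shCdk8-2 replicate 1 in DMSO it was -6.11. Deviations of same-numbered libraries correlated between -0.178 and 0.37 (mean 0.0179, 18 pairs), so the numbers were not taken as pairs. With a replicate block the counts called were 1513, 1285 and 248 under SnxB and 1553 and 1363 in DMSO, and no call of the 6 genes changed. With DESeq2, Tent5a was -9.41 with shCdk8-1 and Cpne4 -8.24 with shCdk8-2 under SnxB. Depth limits the bounds: with 3 counts as the floor, the largest bound for the 6 genes was 41.4-fold.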
